A study of Ogataea haglerorum with 3 samples.

Results

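The 179 most abundant transcripts of Ogataea haglerorum, a methylotrophic budding yeast, were chosen by the mean of the deposited TPM over the 3 libraries, which had to exceed 1000. They are 179 of 5345 annotated genes (3.35%). TPM is a measure of transcript abundance that divides each gene's counts by its length and scales every library to the same total. The libraries were made from polyadenylated RNA of haploid cells of 1 strain, Phaff 81-453.3, in YPD medium (1% yeast extract, 2% peptone and 2% glucose) at 30 °C, harvested in log phase at an OD600 of 0.8 to 1.2. They form 1 group, numbered 1, 4 and 5, with no second condition, so every value below describes growth on glucose only. The labels do not tie each library to a culture of its own, and the spread between libraries may be technical.

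In a yeast growing fast on glucose, a small set of messages usually takes up much of the mRNA pool. Ribosomal proteins, translation factors, glycolytic enzymes and histones are the groups usually found among the most abundant messages of baker's yeast. Many of these proteins are short, and histone genes of baker's yeast lie in divergent pairs. The sources used here pair 0 of the 179 genes with a gene name, so no such role is given to any of them and each is known by its locus tag, its position and its level. Coordinates are those of the authors' annotation, and the sources used here name no genome build for it.

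The levels that chose these genes are a description and were not tested. The set held 49.4% ± 0.39 of all TPM (SD, n = 3), with 49.0%, 49.7% and 49.6% in libraries 1, 4 and 5. It held 37.0% ± 0.43 of all counts (SD, n = 3), while its genes made up 2.07% of the summed gene length. Its median was 2213 ± 36 TPM, against 49.7 ± 0.72 TPM for the other 5166 genes (SD, n = 3). Within the set, 78 genes lay between 1000 and 2000 TPM, 88 between 2000 and 5000 TPM, 9 between 5000 and 10000 TPM, and 4 above 10000 TPM. The 49 highest members held 50% of the members' summed level.

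**Figure D1:**
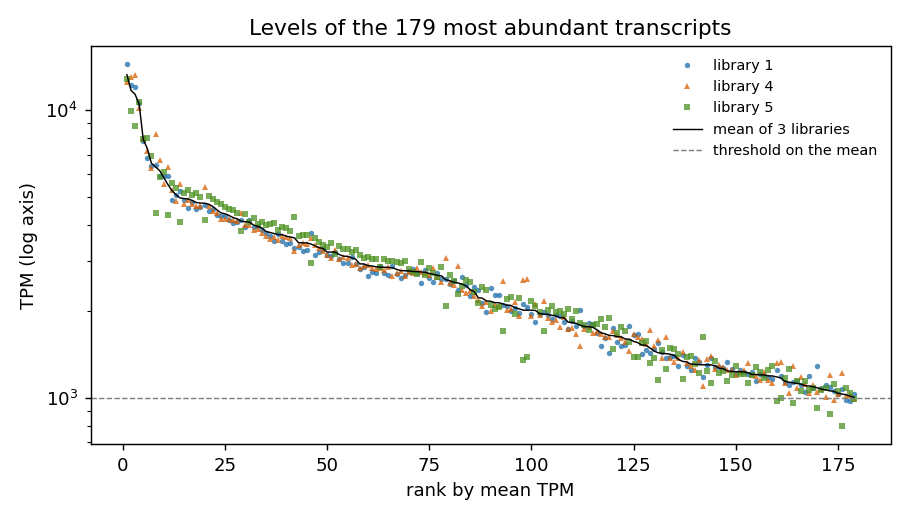
Level of each of the 179 genes in TPM (log axis) against its rank by mean TPM, with 1 symbol per library, the mean as a line and the threshold of 1000 TPM dashed. After 4 genes above 10000 TPM the mean declines to 1004 TPM at rank 179, and a few genes stand out by low values in library 5.

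Counting error was small for every member. The lowest count of any member was 11305 in library 1, that of KL911_003989, which corresponds to a counting error of 0.941%. Library totals were 34047362, 44734719 and 34526996 counts. Reads copied by PCR are not independent molecules, so this error covers counting only. Of the 179 genes, 169 exceeded 1000 TPM in each library and 10 did not, while 8 other genes exceeded it in at least 1 library.

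The threshold did not fall at a break in the levels. Just inside it lay KL911_002771 at 1038 TPM, KL911_001030 at 1031 TPM, KL911_001354 at 1026 TPM, KL911_001317 at 1013 TPM and KL911_004357 at 1004 TPM. Just outside lay KL911_001838 at 980 TPM, KL911_000072 at 977 TPM, KL911_002843 at 968 TPM, KL911_000368 at 960 TPM and KL911_003981 at 957 TPM. KL911_001030 had 1076, 1220 and 798 TPM in libraries 1, 4 and 5, so its place inside rests on libraries 1 and 4.

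The 4 genes above 10000 TPM lay on 3 chromosomes. KL911_002259 (chromosome 6, 84568 to 85583, plus strand) had 14487, 12555 and 12859 TPM in libraries 1, 4 and 5. KL911_002185 (chromosome 6, 210940 to 211947, minus strand) had 12216, 13036 and 9950 TPM. KL911_004990 (chromosome 4, 170908 to 171957, minus strand) had 12060, 13269 and 8789 TPM. The last of these exceeded the first in library 4 and lay below it in libraries 1 and 5, so the order of the highest genes depends on the library. These 3 genes were of nearly the same length, 1016, 1008 and 1050 bases. The fourth, KL911_004296 (chromosome 7, 663878 to 664123, plus strand) is only 246 bases long and was steadier, with 10627, 10165 and 10684 TPM.

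The next 6 genes were all shorter than 600 bases. KL911_004747 and KL911_005188 lie side by side on chromosome 4, at 1144383 to 1144550 and 1145584 to 1145762, both on the minus strand. KL911_004747 had 7844, 7979 and 7948 TPM in libraries 1, 4 and 5. KL911_005188 had 6841, 7226 and 8011 TPM. KL911_003016 followed at 6548 ± 351 TPM, KL911_002240 at 6357 ± 1940 TPM, KL911_004063 at 6175 ± 476 TPM and KL911_000366 at 5843 ± 293 TPM (SD, n = 3). The SD of KL911_002240 exceeded its distance in level from each of the other 3, so their order is not settled by these libraries.

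Members were shorter than the other genes. Their median length was 741 bases, with quartiles of 444 and 1095 bases, against 1215 bases for the other genes, with quartiles of 797 and 1770 bases. Genes of at most 400 bases made up 17.9% of the set and 4.88% of the other genes, and those of 401 to 600 bases made up 24.6% and 8.69%. Read the other way, 11.3% of the 284 genes of at most 400 bases were members, against 0.313% of the 320 genes of over 3000 bases. Within the set, level and length were inversely related, with a Spearman rho of -0.363 across 179 genes, and across all 5345 genes rho was -0.120. Both values are descriptions across genes of the same libraries, in which length enters the level itself.

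Because TPM is divided by length, the lengths of the set are partly fixed by its rule. Ranked by CPM (counts scaled to the library total, not corrected for length), the 179 highest genes had a median length of 1095 bases, against 1197 bases for all others. The rankings shared 134 genes, 74.9% of each list. The 45 members missing from the CPM ranking had a median length of 429 bases, and the 45 genes that replaced them one of 2055 bases. Short genes of at most 600 bases were still more frequent in the CPM ranking than among other genes, at 8.38% and 14.5% of it for the bins up to 400 and from 401 to 600 bases.

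**Figure D2:**
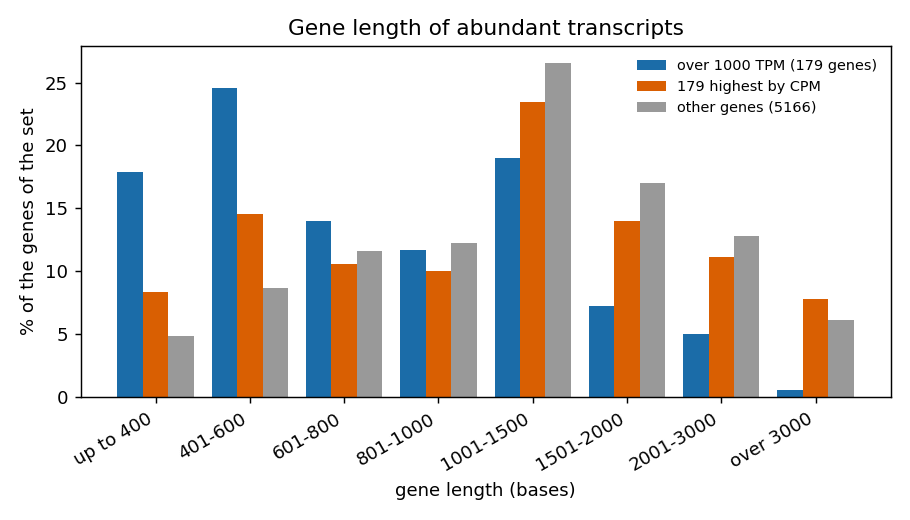
Share (%) of each set of genes that falls into 8 bins of gene length (bases): the 179 genes over 1000 TPM, the 179 genes highest by CPM and the 5166 genes of up to 1000 TPM. The TPM set peaks at 401 to 600 bases with 24.6%, the other sets at 1001 to 1500 bases.

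The extremes of length differed in level. The 3 shortest members were KL911_004747 at 168 bases and KL911_005188 and KL911_005387 at 179 bases each, and reads were 150 bases long. KL911_005387 (chromosome 1, 397858 to 398036, plus strand) had 4582, 4884 and 5294 TPM in libraries 1, 4 and 5. The 3 longest were KL911_003722 at 3144 bases and 1834 ± 173 TPM, KL911_001426 at 2907 bases and 1302 ± 151 TPM, and KL911_001719 at 2694 bases and 2222 ± 190 TPM (SD, n = 3). A length that is not a multiple of 3 was found for 30 members (16.8%) and for 12.6% of the other genes. The counted feature was the whole gene, from first to last base, so the length of a gene with an intron includes it and its TPM is then too low.

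Members were found on all 7 chromosomes. Chromosome 1 had 25 among 566 genes (4.42%), the highest share, and chromosome 4 had 20 among 784 (2.55%), the lowest. Chromosomes 2, 3, 5, 6 and 7 held 34, 26, 27, 27 and 20 members, or 3.70%, 3.23%, 3.52%, 3.01% and 3.30% of their genes. Among the genes highest by CPM, chromosome 7 had the highest share (29 of its 606 genes) and chromosome 6 the lowest (25 of 898). The shares of chromosomes were not tested. Members held between 43.9% ± 0.65 of a chromosome's TPM, on chromosome 4, and 52.3% ± 0.96, on chromosome 7 (SD, n = 3). The highest member of chromosome 1 was KL911_004505 at 4958 TPM, that of chromosome 2 KL911_000666 at 4712 TPM, that of chromosome 3 KL911_004063 at 6175 TPM and that of chromosome 5 KL911_003601 at 4759 TPM. Chromosomes 4, 6 and 7 held all 4 genes above 10000 TPM.

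Over the whole genome the strands were even, but single chromosomes were not. The set had 91 genes on the plus strand and 88 on the minus strand (50.8% plus), close to the 50.3% of all genes. On chromosome 4, 3 members lay on the plus strand and 17 on the minus strand, where all genes of that chromosome were split 387 to 397. On chromosome 5 the members were split 19 to 8 and all genes 372 to 394. On chromosome 7 the members were split 14 to 6 and all genes 304 to 302. The genes highest by CPM, most of which are the same genes, were split 3 to 19, 19 to 7 and 18 to 11 on these chromosomes. These 3 chromosomes were picked out after the counts were seen, and strand was not tested.

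**Figure D3:**
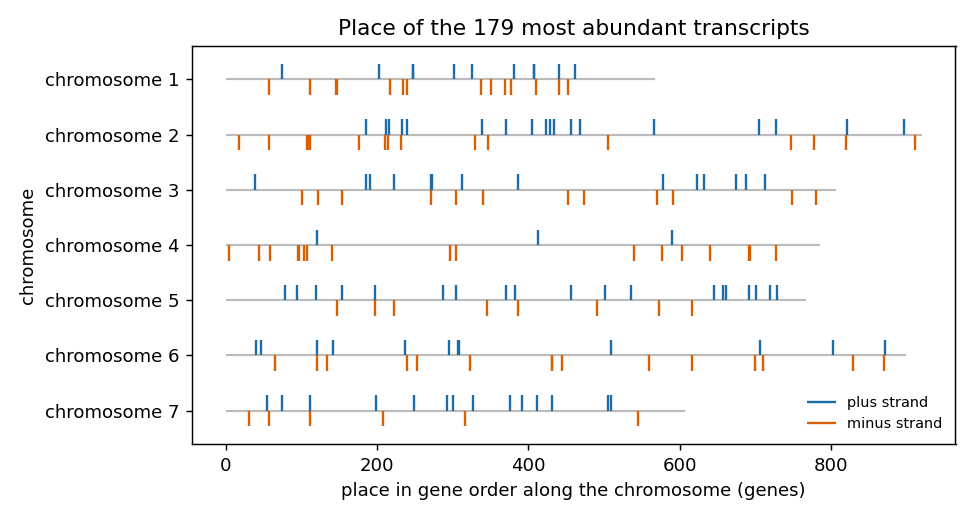
Place of the 179 genes in gene order along each of the 7 chromosomes, with plus-strand members drawn upward and minus-strand members downward. Members are spread along every chromosome, chromosome 4 carries 17 of its 20 on the minus strand, and it has the longest stretch without a member.

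Members were less frequent near the chromosome ends. The sources used here give no chromosome lengths, and the right end was set at the end of the outermost annotated gene. Within 20 kb of an end, 2 of 147 genes were members (1.36%), from 20 to 50 kb 5 of 245 (2.04%) and from 50 to 100 kb 13 of 464 (2.80%). From 100 to 200 kb the share was 4.25% of 870 genes and from 200 to 400 kb 4.02% of 1718, and beyond 400 kb it was 2.79% of 1901. The share was thus highest between 100 and 400 kb from an end. These shares were not tested. The median distance from an end, 310 kb, was nearly that of the other genes, 309 kb.

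The 7 members within 50 kb lay at 5 of the 14 ends. KL911_004887, at 7031 to 8188 on chromosome 4, was the nearest to an end and had 1683, 1694 and 1805 TPM in libraries 1, 4 and 5. KL911_002658, at 1439919 to 1440941 on chromosome 2, had 1200, 1231 and 1173 TPM. Both stood among weakly expressed genes, the first between neighbours at 3.08 and 16.4 TPM and the second between neighbours at 1.52 and 17.4 TPM. The other 5 lay 33776 to 46073 bases from an end. On chromosome 2 these were KL911_000571 at 1525 ± 55 TPM and KL911_002644 at 1646 ± 143 TPM (SD, n = 3). On chromosome 3 it was KL911_004094 at 3626 ± 180 TPM. On chromosome 6 they were KL911_004425 at 2769 ± 186 TPM and KL911_004426 at 3901 ± 181 TPM, a divergent pair with 242 bases between them.

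Most members stood alone, and a minority stood in pairs. A member was the immediate neighbour of another in 35 cases (19.6%), which formed 16 pairs and 1 run of 3, while 6.17% of the other genes stood next to a member. Of the 179 genes ranked next below the set, at 456 to 980 TPM, 20 (11.2%) stood next to one of their own band and 12 (6.70%) next to a member. Among the genes highest by CPM, 24 stood next to another. Of the 18 neighbouring pairs of members, 8 were on the same strand, 8 were divergent (transcribed away from each other) and 2 convergent. That is 44.4%, 44.4% and 11.1%, against 44.6%, 27.7% and 27.7% of all 5338 neighbouring pairs. The gaps within these pairs ran from 104 to 1033 bases, with a median of 252 bases.

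The run of 3 lay on chromosome 3 at 430447 to 432151. Its genes were KL911_000286 of 327 bases on the plus strand, KL911_000285 of 594 bases on the minus strand and KL911_000284 of 482 bases on the plus strand. KL911_000286 had 2012, 2030 and 2248 TPM in libraries 1, 4 and 5. KL911_000285 had 4061, 4143 and 4508 TPM. KL911_000284 had 3277, 3419 and 3683 TPM. All 3 were highest in library 5 and lowest in library 1, while the genes to either side of the run had 14.2 and 232 TPM.

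The pairs with the highest levels in both partners were KL911_004747 with KL911_005188, described above, KL911_000285 with KL911_000284 of this run, and KL911_002826 with KL911_002825 on chromosome 1. KL911_002826 had a mean of 3215 TPM and KL911_002825, 969 bases away on the same strand, one of 3602 TPM. Partners could also differ widely. KL911_002185 at 11734 TPM diverged from KL911_002184 at 1424 TPM across 662 bases, an 8.24-fold difference, although both were highest in library 4 and lowest in library 5.

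A particular arrangement recurred on chromosome 2, noticed after the values were seen. KL911_000799, of 411 bases on the minus strand, diverged from KL911_000800, of 312 bases on the plus strand, across 318 bases. KL911_002567 and KL911_002568 had the same 2 lengths and the same orientation across 406 bases. The 411-base genes had means of 1769 and 2230 TPM and the 312-base genes 2749 and 2014 TPM. A divergent pair on chromosome 5, KL911_003453 and KL911_003454, had 396 bases in both genes and 2733 and 2761 TPM, the most even levels of all 18 pairs. No sequence was compared, and near-identical copies would share reads that the counting, run without an option for multi-mapping reads, may have lost.

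Long stretches held no member. The longest lay on chromosome 4, where 155 genes over 255 kb separated KL911_001563 from KL911_001719. The next lay on chromosome 2 with 138 genes between KL911_002313 and KL911_002452, and again on chromosome 4 with 126 genes between KL911_001836 and KL911_005347. The median step from a member to the next along a chromosome was 19 genes. No 20 neighbouring genes held more than 4 members, and 51.6% of all such windows held none.

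Members had longer flanks free of annotated genes than other genes, which the rule did not use. The upstream gap, from the start of a member to the next annotated gene, had a median of 273 bases (quartiles 174 and 424), against 148 bases for the other genes (quartiles 83 and 300). The downstream gap had a median of 128 bases, against 71 bases. The upstream median was 130 bases for genes of 5 to 50 TPM, 150 bases at 50 to 500 TPM and 252 bases at 500 to 1000 TPM. Above 2000 TPM it was 271 bases over 101 genes, and genes under 5 TPM had 179 bases. Very long upstream gaps of over 1000 bases were about as frequent among members (2.23%) as among other genes (2.44%). The longest were 2083 bases at KL911_005093 on chromosome 1 and 2042 bases at KL911_004887 near the left end of chromosome 4.

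The wider gap held for each arrangement of the upstream neighbour. With the neighbour on the same strand the median was 234 bases for 92 members and 137 bases for other genes. With a divergent neighbour it was 318 bases for 87 members and 160 bases for other genes. A divergent upstream neighbour was less frequent among members, at 48.6% against 55.5%. Downstream, the median gap to a convergent neighbour was 70 bases for members and 38 bases for other genes.

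Genes immediately beside a member were only slightly higher than the rest. The 319 neighbours that were not members themselves had a median of 60.1 ± 1.37 TPM, against 49.0 ± 0.81 TPM for the 4847 genes neither member nor neighbour (SD, n = 3). By library the neighbours had 58.6, 60.4 and 61.3 TPM and the rest 49.9, 48.2 and 49.0 TPM, so the neighbours were higher in each. On the log2(TPM + 1) scale, which understates differences of low genes, the medians differed by 0.29 ± 0.05 (SD, n = 3). Among genes over 50 kb from an end the difference was 0.24. Over 100 TPM lay 30.7% of the neighbours and 27.9% of the rest, and under 5 TPM lay 7.52% and 11.3%.

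The small rise was seen on both sides, and most medians further out were lower, though several still lay above the 49.0 TPM of the rest. Along the direction of transcription, the first gene upstream had a median of 58.6 ± 3.02 TPM and the first gene downstream 62.4 ± 1.57 TPM (SD, n = 3). The second gene had 52.5 ± 1.78 TPM upstream and 54.7 ± 2.38 TPM downstream, and the third 44.6 ± 1.87 and 51.8 ± 1.48 TPM. The fourth gene upstream was again at 58.6 ± 3.34 TPM, as high as the first, so the upstream profile was not smooth. By orientation, same-strand genes downstream had the highest median, 64.6 ± 2.66 TPM over 86 genes. Divergent genes upstream had 62.4 ± 2.54 TPM, convergent genes downstream 53.7 ± 1.07 TPM and same-strand genes upstream 53.2 ± 2.13 TPM. The same positions beside other genes had 49.1 to 50.2 TPM.

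**Figure D4:**
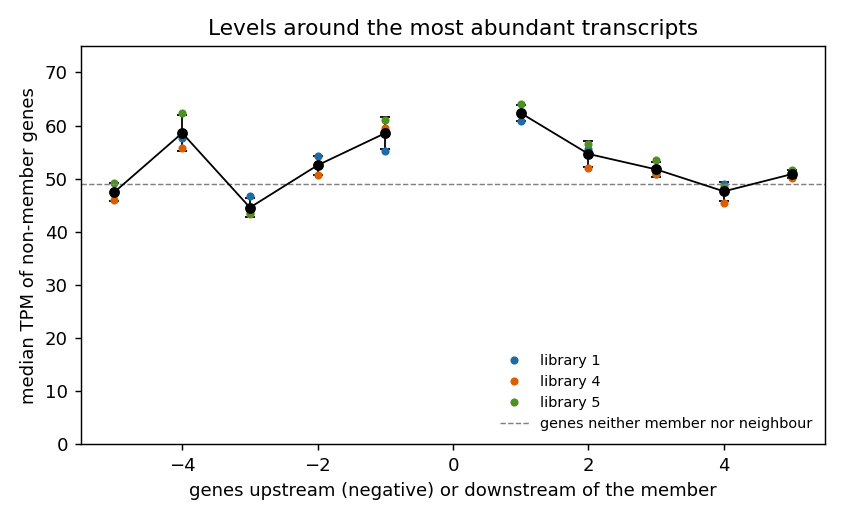
Median TPM of the non-member genes 1 to 5 places upstream (negative) and downstream of a member in the direction of transcription, as mean ± SD of 3 libraries in black and by library in colour. The dashed line marks 49.0 TPM, the median of genes that are neither member nor neighbour. The first gene on either side lies above the line in all libraries, and so do those at places -4, -2, 2, 3 and 5.

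High and nearly silent genes could be direct neighbours. A level at least 10-fold above both neighbours was found for 109 members (60.9%), and 24 members had a neighbour under 5 TPM. Every member exceeded 1000 TPM by the rule, so any member with both neighbours under 100 TPM meets the 10-fold bound by construction. KL911_003016 had 6385, 6308 and 6950 TPM in libraries 1, 4 and 5, while KL911_003017, 210 bases upstream of it, had 0, 3 and 0 counts, a mean of 0.0530 TPM. The 3 members with the lowest higher neighbour were KL911_005347, KL911_003059 and KL911_005222. KL911_005347, on chromosome 4 at 898207 to 899916, had 1067 TPM between neighbours at 9.11 and 0.989 TPM. KL911_003059, on chromosome 7 at 116727 to 117725, had 2342 TPM between 12.1 and 3.09 TPM, 194-fold above the higher. KL911_005222, on chromosome 4 at 1193954 to 1194283, had 1963 TPM between 14.4 and 13.3 TPM.

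Between libraries most members were steady. The ratio of the highest to the lowest library was taken from CPM after TMM scaling, which sets library sizes so that most genes keep their level. It had a median of 1.12 over the 179 members and 1.13 over the 4578 genes tested. The steadiest member was KL911_001998 with a ratio of 1.00, from 2872, 2836 and 2842 TPM in libraries 1, 4 and 5. The SD of TPM had a median of 5.62% of the mean over members and 6.68% over the other tested genes. It was 5.90% for genes of 50 to 500 TPM and 6.13% for genes of 500 to 1000 TPM, so the spread of members was slightly below that of these bands.

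Small differences still exceeded counting error almost everywhere. By chi-square of the counts with Benjamini-Hochberg adjustment over all 4578 genes, 175 members (97.8%) differed between libraries at an adjusted p under 0.05, against a background of 81.4%. Members have high counts, which makes small differences detectable. With a ratio of at least 1.5 required as well, 5 members were called (2.79%), near the background of 3.8%. With the highest library at least 25% above the lowest, 26 members were called (14.5%), against 19.9% of all tested genes. No member reached a ratio of 2, which 0.633% of the tested genes did.

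All 5 called members were highest in library 4 and lowest in library 5, which was also the commonest order among the other genes called so (75 of 169, 44.4%). KL911_003806 (chromosome 6, 1183750 to 1184844, minus strand) had 2128, 2568 and 1360 TPM in libraries 1, 4 and 5, a ratio of 1.90. KL911_002240 (chromosome 6, 112346 to 112609, minus strand) had 6436, 8256 and 4379 TPM, a ratio of 1.90. KL911_004002 (chromosome 3, 1128991 to 1130547, plus strand) had 2074, 2592 and 1389 TPM, a ratio of 1.88. As the shared order implies, library 1 lay between the others in all 5. KL911_001030 (chromosome 2, 722074 to 723036, plus strand) reached a ratio of 1.54, and KL911_004990, one of the 4 genes above 10000 TPM, a ratio of 1.52. Their adjusted p-values were too small to be told from 0 by the software.

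The calls rest on libraries 4 and 5. Without library 4, 1 of them was called, without library 5, 0, and without library 1 the same 5. Over all tested genes the share called fell too, to 1.44%, 0.808% and 2.98% in these 3 settings, against 3.8% with all libraries. Against the common spread between libraries (a biological coefficient of variation of 0.108 by edgeR) in place of counting error, the adjusted chi-square p-values were 0.0498 for KL911_003806, 0.0444 for KL911_002240, 0.0566 for KL911_004002, 0.696 for KL911_001030 and 0.738 for KL911_004990. On that scale 2 of the 5 remained and 0.83% of all tested genes were called.

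The genes beside the called members are given as a description, since the members were picked for a high ratio. KL911_002240 lies between KL911_002241 and KL911_002239, whose ratios were 1.16 and 1.13 and which were highest in library 5 and lowest in library 4, the opposite order. KL911_004002 lies between genes with ratios of 1.08 and 1.20, both highest in library 5. One neighbour of KL911_003806, KL911_003807, had the same order as it, with a ratio of 1.21. None of the 10 neighbouring genes was a member.

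Most of the members with larger shifts had the same order of libraries, as the plot of deviations in library 4 against library 5 shows. Of the 26 called with a difference of at least 25%, 20 (76.9%) were highest in library 4 and lowest in library 5, an order held by 26.7% of the 884 other genes called so. Their median length was 1073 bases, above that of the whole set, and they reached from 1031 to 11734 TPM. The group held 2 of the 4 genes above 10000 TPM, KL911_002185 and KL911_004990. The opposite order, highest in library 5 and lowest in library 4, was held by 2 of the 26 members and by 32.6% of the other genes. The remaining 4 held other orders. One of the 2 was KL911_005156 on chromosome 7, with 1181, 1101 and 1629 TPM in libraries 1, 4 and 5. The lists were chosen and the orders counted with these libraries, so this describes them and was not tested.

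The larger body of members moved a little the other way. Of all 179, 108 (60.3%) were highest in library 5, against 38.2% of the other tested genes, and this number was 108 under library totals and median-of-ratios scaling too. The 71 members highest in library 5 and lowest in library 1 had a median length of 570 bases, a median level of 2846 TPM and a median ratio of 1.12. The 40 highest in library 4 and lowest in library 5 had a median length of 1065 bases and a median level of 1446 TPM.

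Length separated these patterns in part. Among the 76 members of at most 600 bases, 18 (23.7%) were higher in library 4 than in library 5, with a median log2 difference of -0.09. Among the 32 members of 601 to 900 bases, 6 (18.8%) were higher in library 4, with a median of -0.09. Among the 71 members of over 900 bases, 35 (49.3%) were higher in library 4, with a median of -0.0016 and quartiles of -0.09 and 0.24. Other tested genes of the same 3 length classes were higher in library 4 in 50.5%, 52.7% and 49.6% of cases. Across the members, length and the log2 difference between libraries 4 and 5 had a Spearman rho of 0.255 (179 genes), and across the other tested genes one of -0.028, both given as descriptions of genes that share 1 pair of libraries. Library 4 was also the deepest of the 3, and the part of depth in these shifts was not tested.

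**Figure D5:**
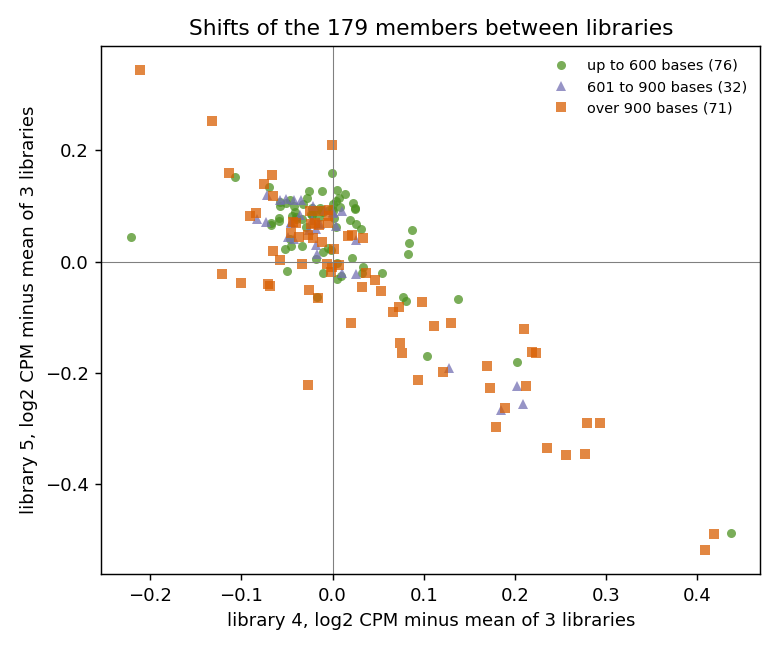
Deviation of each of the 179 genes from its own mean over libraries (log2 CPM after TMM scaling), library 4 on the x axis and library 5 on the y axis, by gene length. Short genes crowd just above 0 on the y axis, and a tail of genes, mostly over 900 bases, reaches down to the right, ending in the 3 genes with ratios of 1.88 to 1.90. Among these 3, KL911_002240 is only 264 bases long.

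The 18 side-by-side pairs of members were mixed in their orders. Among them, 8 (44.4%) had the same highest and the same lowest library, and 10 did not. KL911_000285 of the run of 3 counts in 2 of the 8. Of 4101 neighbouring pairs of tested genes 21.3% shared an order, but the orders of members were less even than those of all genes, so the 2 shares cannot be compared directly. In 5 of the 8 pairs the shared order was highest in library 5 and lowest in library 1. That was the order of 39.7% of all members after TMM scaling, which gave the pair orders too, and of 31.8% under library totals. The genes of the 411- and 312-base pairs had ratios of 1.02 to 1.17, and neither pair shared an order.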

How the data were processed

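Polyadenylated RNA was sequenced in 3 libraries of 1 group. The deposited counts came from featureCounts 2.0.1, run by the authors over whole gene features with strand setting 1 and no option for multi-mapping reads, per the file headers. HISAT2 2.2.1 was also used, per the submitters' processing notes. TPM values are the authors' own and, recomputed from counts and lengths, were within 1% for all 179 genes. A second deposited set of counts for the same 3 libraries equalled the counts used here for all 5345 genes. No per-sample column was left unused.

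TMM factors and the common dispersion came from edgeR 4.0.16 and size factors from DESeq2 1.42.0, in R 4.3.3. The chi-square test of each gene's counts against sampling noise required a mean CPM of 10 or more and was run on simulated counts. The simulation held sampling noise only, so it cannot show how the test behaves with the further spread between these libraries. Other steps used matplotlib 3.10.9, pandas 2.3.3, scipy 1.17.1 and numpy 2.4.6 under Python 3.11.15. With 1 group no contrast between conditions exists.

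Distance to an end counts from that end to the far edge of the gene. The RefSeq table of assembly ASM1920728v1 matched all 179 locus tags and names 0 of them, so the planned groups by product and the sequence features were not made. Genes were named by rule: the 10 highest, 5 on either side of the threshold, those called between libraries, runs of 3, members within 50 kb of an end, the 3 shortest and longest, the 3 highest pairs, the 3 with the lowest neighbours and the highest of each chromosome. Other names were chosen after values were seen. Members, lists and settings were chosen with earlier results of these data known.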

Additional observations from a re-analysis of the deposited data

How the results depend on the processing

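The number of genes over 1000 TPM was 169 to 179 under 5 settings. Their share of TPM was 38.5% over 2000 TPM and 59.6% over 500 TPM, as the construction implies. The 179 genes highest by CPM held 40.4% of counts and had a median length of 1095 bases. The median length was 576 bases over 2000 TPM and 794 bases over 500 TPM. Members within 20 kb of an end numbered 2. The log2 difference of neighbours was 0.23 among genes with at least 10 counts in each library, 0.24 over 50 kb from an end and 0.49 with members kept among the neighbours, and kept its direction under all 8 settings. Members varying between libraries numbered 26 with a difference of at least 25%, 0 with a ratio of 2 or more and 2 beyond the common dispersion, of which 20, 0 and 2 were highest in library 4 and lowest in library 5. Leaving out 1 library gave 0 to 5 varying members, with 0.808% to 2.98% of all tested genes called. The cause of the moves that no construction explains was not tested. Depth did not limit the members, whose counts were 11305 or more. No paired analysis was possible because all 3 libraries belong to 1 group.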
